A study of Homo sapiens with 4 samples.

Results

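The genes described here encode enzymes of the tricarboxylic acid (TCA) cycle, of pyruvate entry into it, of glutamine and glutamate metabolism, and transaminases. They were chosen by name, as 33 listed genes, and each was read through the probe set (a group of short probes for a transcript) with the highest mean log2 signal among those annotated to that gene alone. Of the 33 genes, 30 had such a probe set, out of 19740 genes read in the same way, and GLS2, SDHB and FH were not analysed here. RNA came from cultured human lung adenocarcinoma cells, labelled as type II alveolar cells, on 4 one-colour Affymetrix expression arrays. The groups were CL1-5 cells with a short hairpin RNA against PSAT1, CL1-5 cells with a non-silencing hairpin, CL1-0 cells with a PSAT1 expression vector and CL1-0 cells with an empty vector, with 1 array each. All groups were stably transduced and held under puromycin for 2 weeks. CL1-5 is the more invasive line and was derived from CL1-0.

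With 1 array per group there were no replicates, so no test, p-value or SD over samples is given. Each value is a signal, the MAS5 summary of a probe set in linear units, and a ratio is on the log2 scale. The words rose and fell are used for differences of 2-fold or more, a rule of size alone, and a second count uses 1.5-fold (0.585 on the log2 scale). As a yardstick that does not replace a replicate, log2 ratios of probe sets that read the same gene varied with an SD of 0.302 for PSAT1 over vector, 0.179 for hairpin over non-silencing and 0.586 between the lines' controls. A difference between arrays also covers culture, selection and labelling, and fewer cells of a kind cannot be told apart from less RNA per cell.

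In the TCA cycle, acetyl groups derived from pyruvate join oxaloacetate to form citrate, which is oxidised stepwise back to oxaloacetate while reduced cofactors are passed to the respiratory chain. Glutamine feeds the cycle after its conversion to glutamate and then to alpha-ketoglutarate, through glutamate dehydrogenase or through transaminases, which move an amino group from glutamate to a keto acid. PSAT1 is itself such a transaminase: it makes phosphoserine for serine synthesis and releases alpha-ketoglutarate. Of the enzymes below, only those that handle glutamate or alpha-ketoglutarate are direct neighbours of that reaction.

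PSAT1, the gene targeted by the constructs, gives a check of the array labels. Its brighter probe set read 143 with the hairpin and 1760 with the non-silencing control in CL1-5, against 5494 with PSAT1 and 4214 with vector in CL1-0. The hairpin array was thus 12.3-fold lower than its control, whereas the array labelled as PSAT1 expressing was 1.30-fold above the vector array. The dimmer probe set read 107 and 384 on the same CL1-5 arrays, and 1617 and 1509 on the same CL1-0 arrays. The CL1-0 arrays thus differed little in PSAT1 signal, and the CL1-5 arrays differed strongly.

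The 4 arrays had 48.0% to 52.0% of probe sets above the floor, a signal of 49.0 (the pooled median) that stood in for detection calls, and all 30 enzymes lay above it on every array. Of the alveolar type II markers with a probe set, 6 of 8 were above the floor on each array, with summed signals of 642 to 877, while SFTPD and SLC34A2 were at or under it everywhere. The epithelial markers EPCAM and CDH1 were also at or under the floor on all arrays, while KRT8 and KRT18 carried the rest of that list. KRT8 read 1675 with the hairpin and 1271 with the non-silencing control in CL1-5, against 60.4 with PSAT1 and 77.8 with vector in CL1-0. KRT18 read 5657 and 5308 in CL1-5, against 635 and 757 in CL1-0, in the same order. The summed epithelial signal was thus 6604 to 7363 in CL1-5, against 753 to 882 in CL1-0. Of the fibroblast markers 2 or 3 of 5 were above the floor, and their summed signal was 437 and 424 in CL1-5, against 359.8 with PSAT1 and 695 with vector in CL1-0. COL3A1 made up most of that gap, at 27.4 with PSAT1, under the floor, against 312 with vector. Of the immune and endothelial markers 1 or 2 of 5 were above the floor, with summed signals of 195 and 237 in CL1-5, against 128 and 154 in CL1-0, and PTPRC, LYZ and CDH5 were at or under it everywhere. The part of these markers in the enzyme results was not tested.

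**Figure D1:**
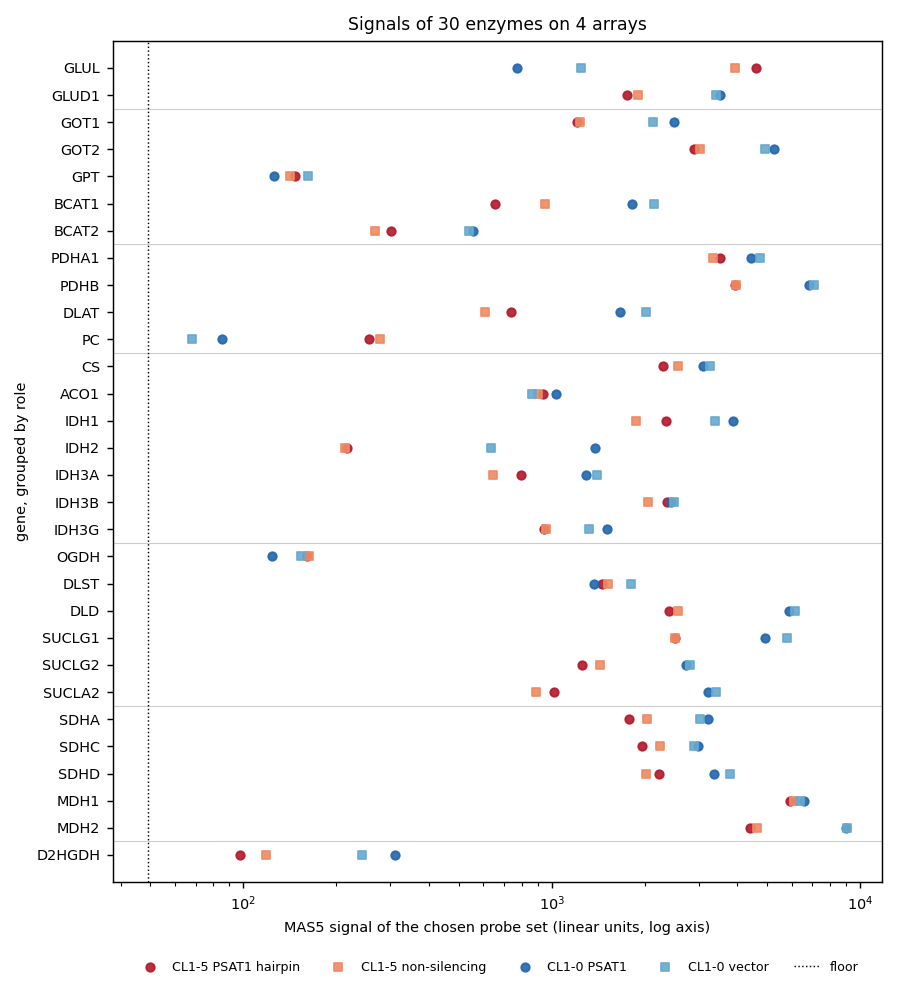
MAS5 signal of the chosen probe set of each of 30 enzymes (x axis, linear units on a log axis) on the 4 arrays, with 1 point per array and horizontal lines between roles. The CL1-5 points (red) lie left of the CL1-0 points (blue) for most enzymes, GLUL and PC lie the other way, and IDH2 has its PSAT1 point at 1385 and its vector point at 636.

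In CL1-0 with PSAT1, the mitochondrial isocitrate dehydrogenase IDH2 rose, glutamine synthetase GLUL was 1.5-fold lower, and the other 28 enzymes differed by less than 1.5-fold by their chosen probe sets. IDH2 (gene ID 3418, chromosome 15) makes alpha-ketoglutarate and NADPH in mitochondria. It read 1385 with PSAT1 against 636 with vector, a log2 ratio of 1.12 or 2.18-fold, and 98.4% of measured genes had a lower ratio. Its dimmer probe set read 121 against 54.0, a log2 ratio of 1.16, so that both probe sets moved alike, the dimmer one from close to the floor. Over the enzymes, 1 of 30 rose and 0 fell, where 2.41% of 13167 measured genes rose and 1% fell. At 1.5-fold, 1 was higher and 1 lower, where 8.97% and 4.05% of measured genes were. These counts are near or below the background. The median log2 ratio was -0.04 over the enzymes and -0.02 over all measured genes.

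Among the enzymes of glutamine and glutamate, GLUL (gene ID 2752, chromosome 1), which makes glutamine from glutamate and ammonia, read 769.9 with PSAT1 against 1244 with vector. That was a log2 ratio of -0.69, or 1.62-fold, and the other GLUL probe sets above the floor had ratios of -0.78 (77.0 against 133) and -0.48 (86.0 against 120). All of the GLUL probe sets with signal above the floor were thus lower on the PSAT1 array. Glutamate dehydrogenase GLUD1, which releases ammonia and alpha-ketoglutarate from glutamate, read 3518 against 3421.

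The transaminases stayed within 1.5-fold in CL1-0 by their chosen probe sets. The cytosolic aspartate aminotransferase GOT1 read 2486 with PSAT1 against 2122 with vector, and the mitochondrial GOT2 read 5268 against 4904. Both pass an amino group between glutamate and aspartate and belong to the malate-aspartate shuttle. The alanine aminotransferase GPT, near the dim end, read 126 against 162 (log2 ratio -0.36). The cytosolic branched-chain aminotransferase BCAT1 read 1817 against 2152 (-0.24) and the mitochondrial BCAT2 read 555 against 539 (0.04). Dimmer BCAT1 probe sets passed 1.5-fold, at 209 against 367 (-0.81) and 155 against 244 (-0.66). The ratios of the 5 transaminases had mixed signs.

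At pyruvate entry, the pyruvate dehydrogenase subunits PDHA1, PDHB and DLAT had ratios of -0.10, -0.06 and -0.29 in CL1-0, and DLAT, the acetyltransferase core of the complex, read 1661 with PSAT1 against 2026 with vector. Pyruvate carboxylase PC, which makes oxaloacetate directly from pyruvate, read 85.4 against 68.4 (0.32), both close to the floor. These ratios were all under 1.5-fold. Between citrate and alpha-ketoglutarate, the signals with PSAT1 against vector were 3101 against 3248 for citrate synthase CS, 1031 against 863 for ACO1, the cytosolic aconitase that doubles as an iron sensor, and 3869 against 3388 for the cytosolic isocitrate dehydrogenase IDH1. The subunits of the NAD-dependent isocitrate dehydrogenase, IDH3A, IDH3B and IDH3G, had ratios of -0.12, -0.04 and 0.19. The IDH2 ratio therefore stood apart from the ratios of the other isocitrate dehydrogenases, the next of which was IDH3G.

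From alpha-ketoglutarate to succinate, all 6 enzymes had negative ratios in CL1-0, between -0.40 and -0.05, and none reached 1.5-fold. The exceptions by setting were SUCLG2, at 0.01 after quantile normalization, and DLD, at 0.09 with the mean over probe sets. Over all measured genes 51.9% of ratios were negative. The most negative was DLST, the succinyltransferase core of the alpha-ketoglutarate dehydrogenase complex, which read 1375 with PSAT1 against 1810 with vector. OGDH, the first enzyme of that complex, read 124 against 154 (-0.31), and SUCLG1, the alpha subunit shared by both succinyl-CoA synthetases, read 4902 against 5788 (-0.24). From succinate to oxaloacetate, SDHA, SDHC, SDHD, MDH1 and MDH2 had ratios between -0.17 and 0.08. D2HGDH, which oxidises D-2-hydroxyglutarate to alpha-ketoglutarate, read 311 against 242 (0.36).

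**Figure D2:**
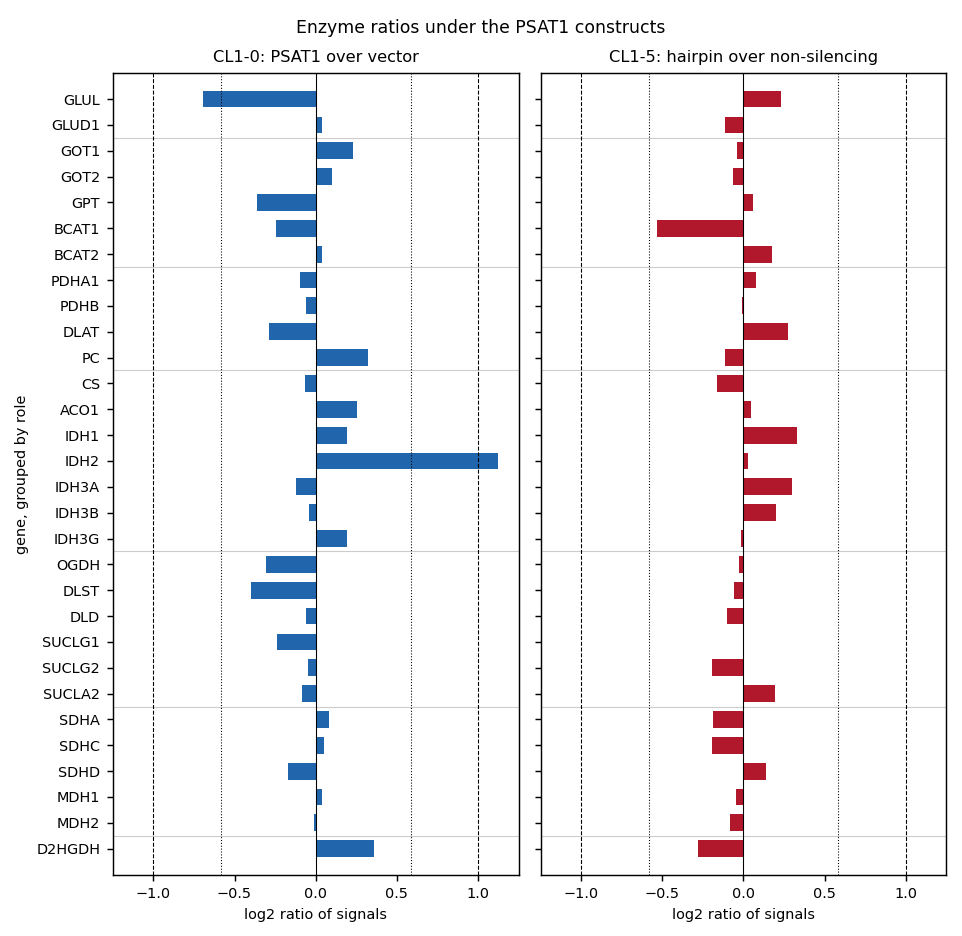
Log2 ratio of signals (x axis) for each of 30 enzymes, with PSAT1 over vector in CL1-0 on the left and hairpin over non-silencing in CL1-5 on the right, 1 array per group. Dotted lines mark 1.5-fold and dashed lines 2-fold; IDH2 passes 2-fold and GLUL passes 1.5-fold in CL1-0, and no enzyme passes 1.5-fold in CL1-5.

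In CL1-5 with the PSAT1 hairpin, where PSAT1 signal was 12.3-fold lower, none of the 30 enzymes reached 1.5-fold. Over all 12852 measured genes, 0.389% rose and 0.405% fell, and 1.67% were 1.5-fold higher and 2.12% 1.5-fold lower. A count of 0 of 30 is near those shares. The median log2 ratio was -0.02 over the enzymes and 0.02 over all measured genes, and 27 of 30 enzymes (90%) had a ratio within 0.3 of 0, against 82.6% of genes with a mean signal at or above the pooled 75th percentile (213), called bright genes below.

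The largest ratio in CL1-5 was that of BCAT1, which read 654 on the hairpin array against 948 on the non-silencing array (log2 ratio -0.54, 1.45-fold). A second BCAT1 probe set read 408 against 587 (-0.53), but the dimmer ones read 185 against 180 (0.04) and 136 against 130 (0.06). The BCAT1 probe sets thus fell into a brighter pair with lower signal on the hairpin array and a dimmer pair without. BCAT2 read 301 against 267 (0.17). IDH1 read 2348 against 1870 (0.33), with a further probe set at 1843 against 1275 (0.53). IDH3A, the catalytic subunit of the NAD-dependent enzyme, read 796 against 646 (0.30), DLAT read 736 against 610 (0.27) and GLUL read 4594 against 3916 (0.23). D2HGDH was the second most negative and read 97.6 against 119 (-0.28).

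IDH2, which rose in CL1-0, read 217 on the hairpin array against 213 on the non-silencing array (0.03), and its dimmer probe set read 55.0 against 74.3 (-0.43). The aspartate aminotransferases hardly differed, with GOT1 at 1207 against 1239 and GOT2 at 2887 against 3018. GPT read 147 against 142 and GLUD1 read 1756 against 1897. The 3 measured succinate dehydrogenase subunits had ratios of -0.19 for SDHA, -0.20 for SDHC and 0.14 for SDHD. PC read 256 against 277 and CS read 2290 against 2560. IDH3B, SUCLG2 and SUCLA2 had ratios of 0.20, -0.19 and 0.19. PDHA1, PDHB, ACO1, IDH3G, OGDH, DLST, DLD, SUCLG1, MDH1 and MDH2 lay within 0.1 of 0.

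Set side by side, the constructs, which share no array, gave opposite signs for 18 of the 30 enzymes and the same sign for 12. Opposite signs made up 60% of the enzymes, 56.3% of all genes measured in both pairs and 57.3% of the bright ones, so the share among the enzymes was near the background. GLUL was lower with PSAT1 (-0.69) and above its control with the hairpin (0.23). D2HGDH had the reverse order (0.36 with PSAT1 and -0.28 with the hairpin), and DLAT had -0.29 and 0.27. BCAT1 was on the low side in both (-0.24 and -0.54), and IDH1 on the high side in both (0.19 and 0.33).

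**Figure D3:**
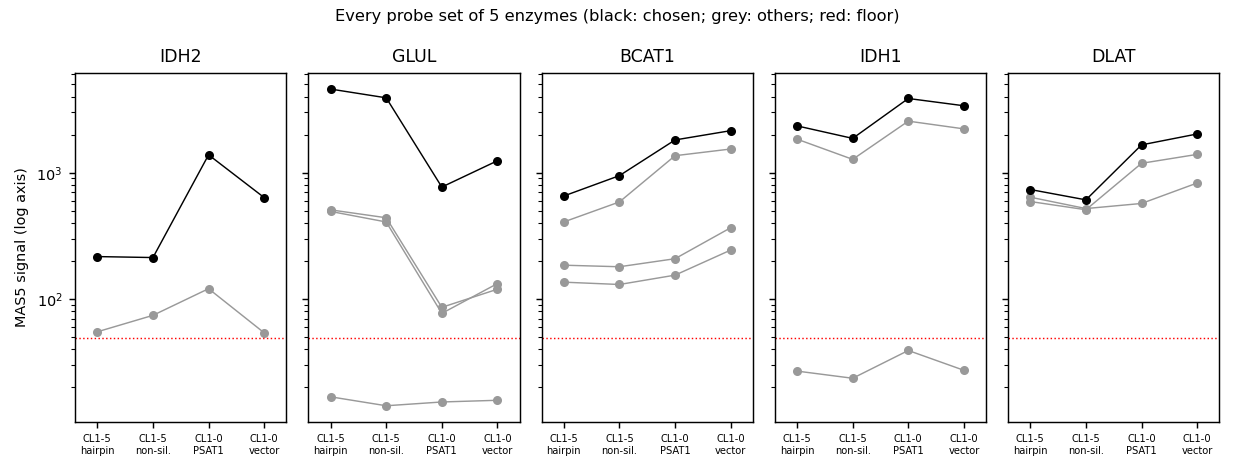
MAS5 signal (y axis, log axis) of every probe set annotated to IDH2, GLUL, BCAT1, IDH1 or DLAT alone, on the 4 arrays (x axis), with lines joining the same probe set. The chosen probe set is black, others are grey and the dotted red line is the floor. GLUL probe sets above the floor follow each other, while the IDH2 probe sets part between the lines' controls and the BCAT1 probe sets part within CL1-5.

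The control arrays of the lines differed far more than the arrays within a line. Most enzymes had lower signal in CL1-5, and GLUL and PC had higher signal. As deposited, 2 of 30 enzymes rose and 9 fell on the CL1-5 non-silencing array relative to the CL1-0 vector array, where 5.14% of 13706 measured genes rose and 24.7% fell. At 1.5-fold, 2 were higher and 17 lower, where 8.39% and 44.3% of measured genes were. The arrays of CL1-5 were dimmer as a whole: the median log2 ratio was -0.48 over all measured genes, -0.70 over the bright ones and -0.81 over the enzymes. Relative to the median of the bright genes, 16 of 30 enzymes were more negative.

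Because of that general shift, each enzyme was also read after quantile normalization and after shifting every array to a common median, taken over the 23166 probe sets that exceeded the floor on each array (centring). Under quantile normalization 2 enzymes rose and 1 fell, where 18.3% of measured genes did either, and under centring 2 rose and 2 fell, where 18.7% did. At 1.5-fold the counts were 3 higher and 5 lower (37.4% of measured genes in either direction), and 4 higher and 5 lower (39.5%), in the same order. The median ratio of the enzymes was -0.11 and -0.19, and that of all measured genes 0.00 and 0.09. Of the 30 ratios, 9 changed sign with the scaling, those of GPT, PDHA1, CS, IDH3B, IDH3G, DLST, SDHA, SDHC and MDH1, and for these no direction between the lines is given. Between the control arrays, GLUL and PC were past 1.5-fold higher in CL1-5 under all 3 scalings. DLAT, IDH2, DLD, SUCLG1 and SUCLA2 were past 1.5-fold lower under all 3. The share of all measured genes past 1.5-fold under all 3 scalings is not given, nor that of genes with a changed sign. These enzymes are therefore named without a background, and the list is not a trait of the enzymes. Rescaled ratios between the arrays with PSAT1 constructs are not given.

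PC (gene ID 5091, chromosome 11) read 256 with the hairpin and 277 with the non-silencing control in CL1-5, against 85.4 with PSAT1 and 68.4 with vector in CL1-0. The CL1-5 arrays lay above both CL1-0 arrays, by 4.04-fold between the controls as deposited, 5.61-fold after quantile normalization and 6.20-fold after centring. PC had 1 probe set, and its CL1-0 signals were close to the floor. With the floor at the 65th percentile (101), its log2 ratio between the controls was 1.45 in place of 2.02, as a lower bound. GLUL read 4594 and 3916 in CL1-5, hairpin first, against 769.9 and 1244 in CL1-0, PSAT1 first. The fold between its controls was 3.15, 4.94 and 4.82 in the same order of scalings, and the other GLUL probe sets above the floor had ratios of 1.62 and 1.88 as deposited.

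SUCLA2, the beta subunit of the ATP-forming succinyl-CoA synthetase, had the most negative ratio between the control arrays, through its only probe set. It read 1019 with the hairpin and 891 with the non-silencing control in CL1-5, against 3203 with PSAT1 and 3400 with vector in CL1-0. Between the controls it was 3.82-fold lower in CL1-5 as deposited, 2.32-fold after quantile normalization and 2.49-fold after centring. Its partner SUCLG1 read 2509 and 2508 in CL1-5 (hairpin, then non-silencing), against 4902 and 5788 in CL1-0 (PSAT1, then vector), a log2 ratio of -1.21 that became -0.59 under either other scaling. SUCLG2, the beta subunit of the GTP-forming enzyme, had a ratio of -0.97 as deposited and was under 1.5-fold once rescaled.

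DLAT read 736 and 610 in CL1-5, against 1661 and 2026 in CL1-0 (hairpin and PSAT1 first, controls second). It was 3.32-fold lower between the controls as deposited and 1.99-fold and 2.17-fold after quantile normalization and centring. As deposited, its other probe sets had ratios of -1.46 and -0.67 between the controls, and their rescaled ratios are not given. The DLAT result under all 3 scalings therefore rests on the chosen probe set. The probe set at -0.67 went the other way between the arrays with constructs, at 640 with the hairpin against 571 with PSAT1 (0.16). DLD, the dihydrolipoamide dehydrogenase shared by the pyruvate and alpha-ketoglutarate dehydrogenase complexes, read 2402 and 2573 in CL1-5, against 5899 and 6149 in CL1-0 in that order. Its ratio was -1.26 as deposited and -0.64 under both other scalings. PDHA1 and PDHB, subunits of the first enzyme of the pyruvate dehydrogenase complex, had ratios of -0.51 and -0.84 as deposited, and of 0.11 and -0.24 after quantile normalization. Other probe sets had ratios as deposited of -1.26 for PDHA1 and -1.46 for PDHB, so the order of DLAT, PDHA1 and PDHB depends on the probe set chosen.

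IDH2 read 217 with the hairpin and 213 with the non-silencing control in CL1-5, against 1385 and 636 in CL1-0 (PSAT1, then vector). Between the controls the log2 ratio was -1.58 as deposited, -0.95 after quantile normalization and -0.96 after centring. The dimmer IDH2 probe set went the other way, at 74.3 against 54.0 (0.46), both near the floor. The direction for IDH2 between the controls thus rests on the brighter probe set. Between the arrays with constructs the dimmer one was also lower in CL1-5, at 55.0 with the hairpin against 121 with PSAT1 (-1.13). The cytosolic IDH1 read 2348 and 1870 in CL1-5, against 3869 and 3388 in CL1-0, a ratio of -0.86 between the controls that became -0.17 after quantile normalization.

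The cytosolic and mitochondrial forms of the same reaction did not always have like ratios between the lines. The cytosolic malate dehydrogenase MDH1 read 5920 and 6114 in CL1-5, against 6587 and 6402 in CL1-0, a ratio of -0.07 between the controls, whereas the mitochondrial MDH2 read 4384 and 4642 in CL1-5, against 9016 and 9096 in CL1-0, a ratio of -0.97. After quantile normalization these ratios were 0.48 and -0.44. MDH2 had a further probe set with a ratio of -1.04. GOT1 and GOT2 had ratios of -0.78 and -0.70 as deposited, which became -0.04 and -0.05 after quantile normalization. BCAT1 and BCAT2 had -1.18 and -1.02 as deposited, and -0.43 and -0.38 after quantile normalization. ACO1 read 934 and 905 in CL1-5, against 1031 and 863 in CL1-0. OGDH read 161 and 164 in CL1-5, against 124 and 154 in CL1-0. The ratios of ACO1 and OGDH, 0.07 and 0.09 as deposited, became 0.78 and 0.54 after quantile normalization. The other OGDH probe sets, which were dimmer, had ratios of -0.18 and -0.07 as deposited.

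The remaining enzymes lay between these. IDH3A had a ratio of -1.12 and D2HGDH one of -1.03 as deposited, and GLUD1 one of -0.85, and after quantile normalization they had -0.39, -0.56 and -0.17. SDHA, SDHC and SDHD had ratios of -0.58, -0.36 and -0.90 as deposited, and SDHD kept a negative one of -0.24 after quantile normalization.

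**Figure D4:**
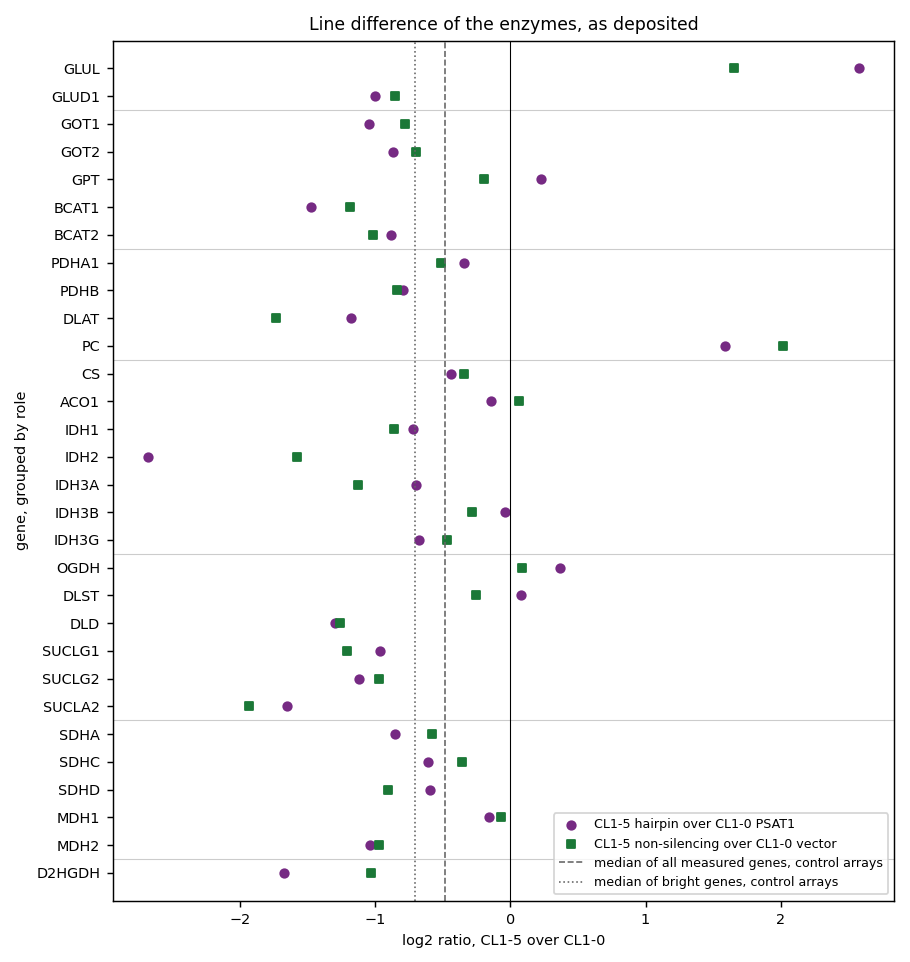
Log2 ratio of CL1-5 over CL1-0 signal as deposited (x axis) for each of 30 enzymes, between the arrays with PSAT1 constructs (circles) and between the control arrays (squares). Grey lines mark the medians of all measured genes (dashed, -0.48) and bright genes (dotted, -0.70) between the controls; PC and GLUL lie far right of both lines, and SUCLA2, DLAT and IDH2 lie far left.

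The arrays with PSAT1 constructs gave a second reading of the same lines, in which line and construct cannot be told apart. Over the 30 enzymes, the ratio of CL1-5 hairpin over CL1-0 PSAT1 and the ratio between the controls had a Pearson r of 0.918, given as a description, since the points share the lines and the general shift. As deposited, both CL1-5 arrays lay below both CL1-0 arrays for 24 of 30 enzymes (80%), where 65% of all genes and 76.3% of bright genes did so, and above them for 3 (10%), where 17.1% and 9.46% did so. After quantile normalization the enzymes split into 14 below (46.7%) and 12 above (40%), where 36% and 40.2% of all genes and 39.8% and 35.5% of bright genes did. After centring the counts were the same, where 29.9% and 48.4% of all genes and 38.9% and 35.4% of bright genes did. IDH2 had the widest gap between the arrays with constructs, with a log2 ratio of -2.68 as deposited, and GLUL had 2.58. Between the controls these ratios were -1.58 and 1.65. Both gaps also hold the differences within the lines. IDH2 and GLUL had ratios of 1.12 and -0.69 for PSAT1 over vector, and 0.03 and 0.23 for hairpin over non-silencing.

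**Figure D5:**
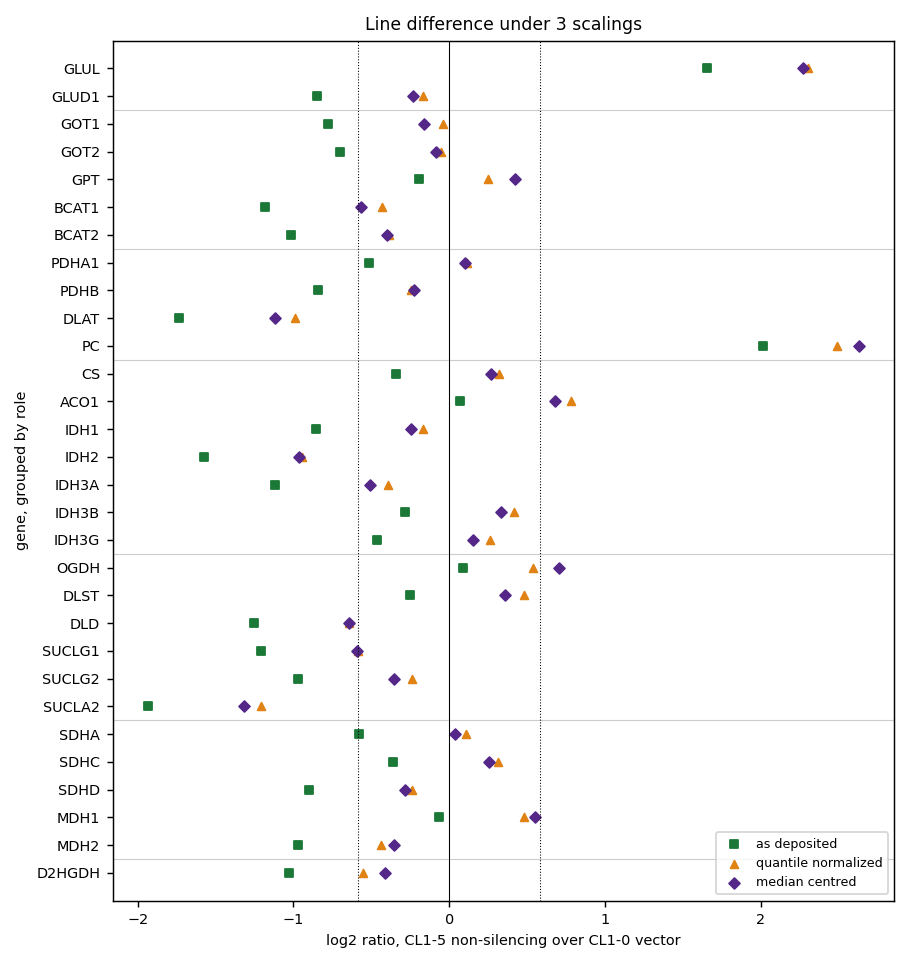
Log2 ratio of the CL1-5 non-silencing array over the CL1-0 vector array (x axis) for each of 30 enzymes as deposited, after quantile normalization and after median centring. Dotted lines mark 1.5-fold; rescaling moves nearly all points to the right, PC, GLUL, DLAT, IDH2, DLD, SUCLG1 and SUCLA2 stay past 1.5-fold, and 9 enzymes cross 0.

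Between the control arrays, the chosen probe sets of PC and GLUL were higher in CL1-5 under all 3 scalings, and those of DLAT and SUCLA2 lower. The start regions of these genes are shown side by side. Each is 300 bases, 250 before and 50 from the outermost annotated start, from RefSeq on GRCh38.p14, written 5′ to 3′ on the gene's strand. They lie at chr11:66958334-66958633 on the minus strand for PC, chr1:182391741-182392040 on the minus strand for GLUL, chr11:112025158-112025457 on the plus strand for DLAT and chr13:48001224-48001523 on the minus strand for SUCLA2. Capitals mark matches, on either strand, to GGGCGG (the GC box) or CCAAT (the CCAAT box), which did not overlap each other.
PC: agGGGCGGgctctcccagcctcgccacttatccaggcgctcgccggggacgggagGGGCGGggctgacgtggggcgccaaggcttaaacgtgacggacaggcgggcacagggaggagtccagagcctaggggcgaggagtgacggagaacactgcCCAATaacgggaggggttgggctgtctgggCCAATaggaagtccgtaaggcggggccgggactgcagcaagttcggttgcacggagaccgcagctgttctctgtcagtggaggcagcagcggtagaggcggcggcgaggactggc
GLUL: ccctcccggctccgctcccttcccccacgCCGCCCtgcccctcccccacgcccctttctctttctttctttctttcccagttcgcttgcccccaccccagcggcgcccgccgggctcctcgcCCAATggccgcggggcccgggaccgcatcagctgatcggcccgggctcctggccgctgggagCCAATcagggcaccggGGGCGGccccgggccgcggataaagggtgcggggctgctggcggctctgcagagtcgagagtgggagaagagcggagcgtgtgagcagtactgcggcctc
DLAT: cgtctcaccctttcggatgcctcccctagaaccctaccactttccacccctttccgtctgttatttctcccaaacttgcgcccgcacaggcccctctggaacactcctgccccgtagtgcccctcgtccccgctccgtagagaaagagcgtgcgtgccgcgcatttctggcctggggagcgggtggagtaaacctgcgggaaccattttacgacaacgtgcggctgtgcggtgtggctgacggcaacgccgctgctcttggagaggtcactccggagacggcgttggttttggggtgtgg
SUCLA2: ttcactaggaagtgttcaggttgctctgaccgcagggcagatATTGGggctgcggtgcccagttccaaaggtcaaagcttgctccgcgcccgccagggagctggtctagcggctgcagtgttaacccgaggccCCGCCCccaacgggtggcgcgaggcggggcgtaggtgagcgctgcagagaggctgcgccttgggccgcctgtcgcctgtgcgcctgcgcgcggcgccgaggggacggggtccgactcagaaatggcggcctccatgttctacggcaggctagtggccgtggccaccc

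PC and GLUL each held 2 GC boxes and 2 CCAAT boxes in this window, SUCLA2 held 1 of each, and DLAT held 0 of either. The windows of DLD and SUCLG1, also lower under all 3 scalings but not shown, held a CCAAT box and no GC box. Whether these boxes bear on the line difference was not tested. Over the enzymes with such a window (25 of 30), 60% held a GC box and 48% a CCAAT box, where 43.9% and 36.1% of the windows of 24885 genes did. The E-box CACGTG was in 1 of the 25 windows (that of PDHB), the TATA box TATAAA in 1 (BCAT1) and the amino acid response element TGATGNAA in 1 (GOT1), where 7.4%, 12.3% and 3.7% of all windows held them. A match is a description of the letters only. No such window was used for GPT, BCAT2, IDH2, OGDH and SDHC.

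A wider list of 55 genes around these reactions, holding regulators of pyruvate entry, other enzymes at the cycle, carriers, other users of glutamate and glutamine, and lipoylation and assembly factors, had 48 with a probe set. In CL1-0 with PSAT1, 3 of 46 measured genes rose and 0 fell, where 2.41% and 1% of all measured genes did. PDK3, a kinase that switches off pyruvate dehydrogenase, read 1386 with PSAT1 against 495 with vector (2.80-fold). PCK2, the mitochondrial enzyme that turns oxaloacetate into phosphoenolpyruvate, read 1101 against 495 (2.22-fold). ABAT, the transaminase of gamma-aminobutyrate, read 155 against 71.7 (2.16-fold).

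In CL1-5 with the hairpin, PSAT1 itself was the 1 gene of the wider list that fell, and 0 of 45 measured genes rose, where 0.405% of all measured genes fell and 0.389% rose. PDK3 had the next largest ratio and read 407 on the hairpin array against 786 on the non-silencing array (-0.95, 1.93-fold). A second PDK3 probe set read 85.0 against 155 in CL1-5, and in CL1-0 252 with PSAT1 against 90.9 with vector, and so gave the same order as the first in both lines. Other PDK3 probe sets differed less, and the brightest of these read 184 on the hairpin array against 197 on the non-silencing array, and 205 with PSAT1 against 143 with vector. PCK2 read 295 on the hairpin array against 310.5 on the non-silencing array.

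Between the control arrays as deposited, 4 of 46 measured genes of the wider list were 2-fold higher in CL1-5 and 13 were lower, against 5.14% and 24.7% of all measured genes. After quantile normalization 6 were higher and 5 lower, where 18.3% of measured genes passed 2-fold in either direction. ME1, the cytosolic malic enzyme that makes NADPH while turning malate into pyruvate, read 978 with the hairpin and 1203 with the non-silencing control in CL1-5, against 10.1 with PSAT1 and 69.1 with vector in CL1-0. It was 17.4-fold higher between the controls. The mitochondrial malic enzyme ME2 was lower in CL1-5, at 689 on the non-silencing array against 2680 on the vector array. PDP1, the phosphatase that reactivates pyruvate dehydrogenase, read 1836 against 564 on these arrays (3.26-fold), PDK1 read 989 against 480.1 and ME3 read 155 against 68.5. Asparagine synthetase ASNS, which uses glutamine, read 860.0 against 4523, and the glutamine carrier SLC38A1 read 1613 against 7031. ASNS, SLC38A1, ME2, and the mitochondrial carriers SLC25A1 and SLC25A10 were 2-fold lower under all 3 scalings, and ME1, ME3, PDP1 and PDK1 were 2-fold higher under all 3. The others that were 2-fold lower as deposited were MPC2, ACLY, SLC25A13, PSAT1, CAD, LIPT1, SDHAF3 and SDHAF4, all of which but SDHAF3, under centring, were under 2-fold once rescaled. The share of all measured genes past 2-fold under all 3 scalings is not given.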

How the data were processed

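The table held 54675 probe sets, 62 of them control probe sets, on 4 arrays. Each value is an intensity on a linear scale (a MAS5 signal, per the submitters' processing notes), as deposited by the authors. Its version, its scaling target and detection calls are not given in the sources used here. Per the labels, biotinylated cRNA came from 6 ug of total RNA.

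Signals were floored at the pooled median of non-control probe sets (49.0) and log2 transformed, in Python 3.11.15 with numpy 2.4.6 and pandas 2.3.3. A gene was measured in a pair if at least 1 array was above the floor. Genes came from the platform annotation, with symbols updated through RefSeq gene IDs for 41037 of 41091 probe sets, and the probe set with the highest mean log2 signal stood for a gene. Y-linked and X-inactivation probe sets were left out. With 1 array per group no test was run; calls are by size, and the number of arrays limits the precision. Named genes were the members past 1.5-fold, isozyme pairs, the largest ratios per role, PSAT1, and genes of the wider list past 2-fold. The members, the lists and the alternatives were chosen with earlier results of these data known. Alternatives were 2 scalings, floors at the 25th and 65th percentile, the mean over probe sets, and leaving out multi-transcript probe sets.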

Additional observations from a re-analysis of the deposited data

How the results depend on the processing

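Within the lines, the count of enzymes past 2-fold was 1 in CL1-0 and 0 in CL1-5 under every alternative run. In CL1-0 the count past 1.5-fold was 2, and 1 with the mean over probe sets and 1 without multi-transcript probe sets (names ending in _s_at, _x_at or _a_at), where GLUL drops out. Leaving those out takes a GLUL probe set under the floor. Between the control arrays, the count past 2-fold was 11 as deposited, 3 after quantile normalization and 4 after median centring, where 29.9%, 18.3% and 18.7% of measured genes were. The count past 1.5-fold was 19, 8 and 9 (52.7%, 37.4% and 39.5% of measured genes), and the median log2 ratio -0.81, -0.11 and -0.19, in the same order. The median of all measured genes moved with the scaling as well (-0.48, 0.00 and 0.09). The floors left all of these counts as they were. Without multi-transcript probe sets, the IDH2 ratio between the lines was 0.46 in place of -1.58, since that setting takes its dimmer probe set. No paired analysis was possible because each group had 1 array and no result comes from a test. Leaving out replicates was likewise not possible. Signal over background limits PC, GPT, OGDH and D2HGDH most, which lay nearest the floor.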

Other observations

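Probe sets of the same enzyme parted in several cases, and the reason was not tested. In CL1-0 the BCAT1 probe sets with the lower signal read 209 with PSAT1 against 367 with vector (log2 ratio -0.81) and 155 against 244 (-0.66), while the brighter ones had ratios of -0.24 and -0.18. In CL1-5 the order was reversed, with 0.04 and 0.06 for the dimmer and -0.54 and -0.53 for the brighter probe sets. For SDHC, the membrane anchor subunit of succinate dehydrogenase, a dim probe set read 450.2 with PSAT1 against 291 with vector (0.63) and 102 on the hairpin array against 143 on the non-silencing array (-0.48), where the brightest one had ratios of 0.05 and -0.20. For IDH3G the dimmer probe set was higher in CL1-5, at 327 on the non-silencing array against 196 on the vector array, where the brighter one read 957 against 1320. Of the 17 enzymes with more than 1 measured probe set, signs were mixed for 6 in the CL1-0 pair, for 7 in the CL1-5 pair and for 3 between the control arrays. The same shares over all genes are not given, so these counts are not a trait of the enzymes.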
